A study of Mus musculus with 24 samples.

Results

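The libraries described here are those of Th17 and regulatory T (Treg) cells, 12 of the 24 libraries in a study of mouse T cells polarised in culture. They were chosen by the cell type in their labels, 6 of Th17 and 6 of Treg. The rule used no measured value, but earlier results of these data were known when the choice was made. All come from cells of genotype WT, and in both cell types 1 library was treated with the vehicle DMSO and 5 with 1 kappa opioid receptor (KOR) agonist each: WMS-83-02, WMS-76-04A, WMS-75-13, WMS-64-07 or WMS-200-01, at 0.1 µM in a culture of at most 5 days. The compounds are derived from perhydroquinoxaline per the labels, and their names, taken from the treatment protocol, are shortened below to the first number. The last part of the name differs between the cell types in the sample labels (WMS-83-03 in Th17 and WMS-83-04 in Treg, for example), and the first number was taken to name the compound. 1 further library has a title that says Th17 but Th1 as its source and column name, and it was not included. The polarising cytokines and the source of the starting T cells beyond the word mouse are not stated, and the labels name no age or sex. Each cell type and treatment has 1 library, so the 6 libraries of a cell type serve as its replicates while carrying different treatments. Nothing in the labels says that they came from separate animals or cultures, and the p-values below measure only the spread between these libraries.

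Th17 and Treg cells are CD4 T cell fates that share an inducer. TGF-beta with IL-6 turns on the Th17 programme and the IL-17 cytokines, which recruit neutrophils and protect barrier tissue, while TGF-beta with IL-2 sustains Foxp3, the factor that gives Treg cells their suppressive function. Cells with features of both fates are known, and Treg cells act through surface molecules such as CTLA-4, the integrin αvβ8 that releases active TGF-beta, and CD39 and CD73, which turn extracellular ATP into adenosine.

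Total counts ran from 16271300 to 21608525 in Th17 and from 15188284 to 18500457 in Treg libraries. Values are given as CPM, counts per 1000000 counts of a library after trimmed-mean (TMM) scaling, and differences as log2 fold changes, Th17 minus Treg, with their standard errors, so a positive value is higher in Th17. The cell types separated along the first principal component, which held 79.2% of the variance. Of 14768 genes with enough counts, 11113 (75.3%) passed an adjusted p of 0.05 in edgeR's quasi-likelihood test with compound as a block. Of all genes tested 35.9% were higher in Th17 and 39.3% higher in Treg, and with a difference of at least 2-fold 16.3% and 20.9%. All 6 libraries of one cell type lay above all 6 of the other for 29.7% of the genes in favour of Th17 and 27.8% in favour of Treg. The median log2 difference over all genes was −0.10. Against a background this wide, a share of called members near these percentages is no result about a list, and each list below is given by its counts and its median, to be read beside these values.

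The make-up of the libraries also differed. Genes of ribosomal proteins made up 11.5% ± 1.17 of the counts in Th17 and 2.22% ± 0.411 in Treg libraries (SD, n = 6 each), with no overlap, and the exact two-sided permutation test gave p = 0.00216, the smallest that 6 against 6 libraries allow (adjusted p = 0.00216 over the 3 shares tested). Mitochondrially encoded genes took 0.277% ± 0.113 in Th17 and 1.09% ± 0.215 in Treg (exact permutation p = 0.00216). The 50 most abundant genes of a library held 15.1% ± 1.27 of the counts in Th17 and 7.83% ± 0.187 in Treg (exact permutation p = 0.00216). Longer genes tended to be higher in Treg. Across 10630 protein-coding genes with a mean log2 CPM of at least 1, Spearman's rho between gene length and log2 difference was −0.295. These genes are not independent replicates. The median gene length weighted by counts was 4321 to 4782 bases in Th17 and 5605 to 6035 bases in Treg libraries. Values with a length trend removed within each library are therefore given below for printed differences whose direction or call the removal changed, and for lists in which it changed a count of called members by 2 or more. The removal was run for all genes tested, and changes in size alone are mostly not given. What part gene length has in the differences was not otherwise tested.

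In the count table each column name also holds a WT number, which no label explains. It is 2 for Th17 DMSO, 3 for Th17 WMS-83 and 1 for the remaining 4 Th17 libraries. Of the Treg libraries DMSO and WMS-200 carry a 3 and the remaining 4 a 2. The second principal component, with 5.19% of the variance, set the Treg libraries of number 3 apart from those of number 2, so the Th17 library and the Treg libraries of the same number were also compared within it. Of the 11113 called genes, 10934 (98.4%) kept their direction both within number 2 and within number 3. Of the 5495 called genes with at least 2-fold difference, 5448 (99.1%) did so. The same libraries had entered the calls, which favours agreement, so these counts are no independent check. Each number holds 1 Th17 library, set against Treg libraries with other treatments. The Th17 libraries of number 1 have no Treg library of their number and were left out.

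The defining markers followed the labels. Il17f (chromosome 1, 20847370 to 20860841, - strand, coordinates here and below as the file gives them, build not stated), which encodes the cytokine IL-17F, ran from 722 to 1059 CPM in Th17 libraries with a median of 843, and from 0.576 to 3.71 CPM in Treg libraries with a median of 1.81. Its log2 difference was 8.86 ± 0.25 (adjusted p = 1.38e-10). Maf (chromosome 8, 116409681 to 116434533, - strand), a transcription factor that acts on Il10 and Il21, stood at 433, 476, 450.1, 432, 442 and 446 CPM in the Th17 libraries in the order DMSO, WMS-200 and then the other agonists by rising number, which is the order of every such series below. In Treg it stood at 57.0, 69.7, 104, 99.2, 105 and 113 CPM, a log2 difference of 2.33 ± 0.13. All 6 Th17 libraries lay above all 6 Treg libraries for both genes, and the Treg DMSO and WMS-200 libraries were the lowest for Maf.

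Foxp3 (chromosome X, 7439883 to 7461484, + strand) stood at 177, 225, 344, 313, 379 and 381 CPM in the Treg libraries and at 38.8, 36.9, 31.7, 37.8, 29.1 and 39.9 CPM in the Th17 libraries, a log2 difference of −3.04 ± 0.18 (adjusted p = 7.27e-08). Every Treg library exceeded every Th17 library, yet Foxp3 transcripts were present in all Th17 libraries too. In bulk RNA, a smaller share of cells that express a gene and less RNA per cell cannot be told apart. Ikzf2 (chromosome 1, 69570373 to 69726404, - strand), which encodes Helios, a factor of the Ikaros family abundant in Treg cells, stood at 1239, 1191, 595, 648, 625 and 576 CPM in Treg and 16.6, 14.9, 13.6, 13.8, 15.0 and 9.17 CPM in Th17 libraries, a difference of −5.81 ± 0.15 (adjusted p = 1.81e-11). The same 2 Treg libraries, DMSO and WMS-200, were the lowest of the Treg libraries for Foxp3 and the highest for Ikzf2. Within WT number 2 the log2 ratio of the Th17 to the Treg mean was 8.23 for Il17f, 2.04 for Maf, −3.19 for Foxp3 and −5.19 for Ikzf2, and within number 3 it was 9.89, 2.82, −2.33 and −7.03.

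**Figure D1:**
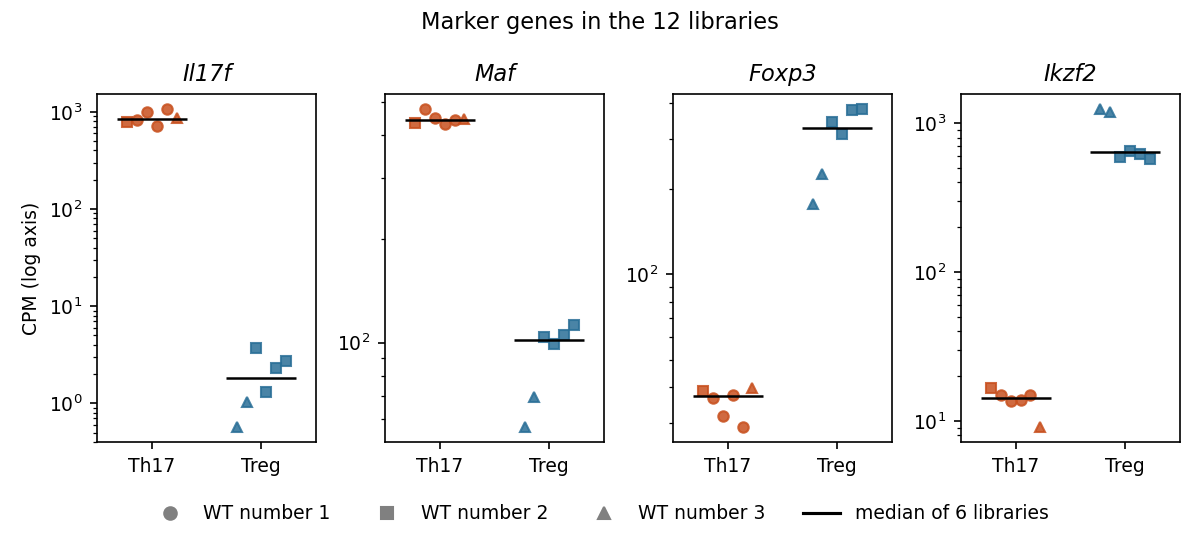
CPM on a log axis of Il17f, Maf, Foxp3 and Ikzf2 in each of the 12 libraries; points are libraries, symbols give the WT number of the column name, and bars mark the median of 6 libraries. The groups are apart for all 4 genes, and the Treg libraries of WT number 3 are the lowest Treg libraries for Il17f, Maf and Foxp3 and the highest for Ikzf2.

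Of the 11 cytokine genes of the Th17 list, 9 were higher in Th17, 1 was higher in Treg and 1 did not pass, with a median log2 difference of 4.76. Il17a (chromosome 1, 20801129 to 20804720, + strand) ran from 117 to 213 CPM in Th17 and from 0.0495 to 1.03 CPM in Treg (8.34 ± 0.23). Il21, the cytokine by which Th17 cells act back on themselves and on B cells, ran from 194 to 229 CPM in Th17 libraries and was scarce in Treg, with 18 counts over the 6 libraries (10.31 ± 0.34). Il9, a cytokine that TGF-beta can induce in helper cells, had 15705 counts in Th17 and 11 in Treg (10.53 ± 0.22). No Treg library approached a Th17 library in any of these genes.

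The other cytokines were less abundant. Il22, which acts on epithelium, ran from 9.91 to 19.0 CPM in Th17 and had 6 counts in all Treg libraries (7.92 ± 0.51), and Il24 had 243 counts in Th17 and 9 in Treg (4.76 ± 0.60). Il10, the anti-inflammatory cytokine that Treg cells can also make, was higher in Th17, at 12.6 to 19.6 against 0.196 to 1.33 CPM (4.72 ± 0.32). Csf2, which encodes GM-CSF, a cytokine tied to the pathogenic form of Th17 cells, went the other way, at 0.650 to 2.10 CPM in Th17 and 4.78 to 17.8 CPM in Treg (−3.20 ± 0.32). Ltb did not pass (0.16 ± 0.08, adjusted p = 0.0926), and with the length trend removed it was higher in Treg (−0.46). In 3 other alternatives it passed as higher in Th17.

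Among the Th17 transcription factors 13 of 15 were higher in Th17 and 2 in Treg (median 0.89). Sox5, a transcription factor that works with Maf, had 500 counts in Th17 and 8 in Treg (6.0 ± 0.49). Batf, the AP-1 factor that opens Th17 loci, ran from 74.4 to 109.6 CPM in Th17 and 12.4 to 18.8 CPM in Treg (2.57 ± 0.09), and its partner Irf4 from 1036 to 1114 and 270.2 to 460.1 CPM (1.5 ± 0.10). For all 3 the groups were apart. Stat3, the transducer of IL-6 and IL-23, differed little, at 1114 to 1229 against 941 to 1072 CPM (0.19 ± 0.08, adjusted p = 0.0379), a call lost in 8 of the alternatives. The 2 genes higher in Treg were Nfkbiz, which encodes the nuclear protein IκBζ (−1.88 ± 0.10), and Basp1 (−1.43 ± 0.10).

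Of the 12 receptors and surface genes of the Th17 list 8 were higher in Th17 and 2 in Treg (median 2.14). Tmem176a and Tmem176b, neighbouring genes of intracellular cation channels, ran from 171 to 232 and 118 to 183 CPM in Th17 and from 1.15 to 2.84 and 0.196 to 2.92 CPM in Treg (6.54 ± 0.16 and 6.32 ± 0.43). Aqp3, a water and glycerol channel, ran from 621 to 776 against 12.2 to 28.8 CPM (5.02 ± 0.15). The receptors for IL-1 and IL-23 were low in both cell types but apart: Il1r1 ran from 7.54 to 10.9 against 0.231 to 1.44 CPM (3.81 ± 0.27) and Il23r from 1.96 to 3.58 against 0 to 0.636 CPM (3.13 ± 0.53). Gpr15, a homing receptor for the large intestine, was also higher in Th17 (3.25 ± 0.32). Ccr6, the chemokine receptor by which Th17 cells are often sorted, was higher in Treg, at 45.3 to 77.3 against 28.9 to 38.2 CPM (−0.88 ± 0.11), while its ligand Ccl20 was higher in Th17 (1.69 ± 0.41).

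The Treg transcription factor list did not move as 1 group: 8 of 16 were higher in Th17, 6 in Treg and 2 did not pass (median 0.17, and −0.038 with a count minimum of 50). Beside Foxp3 and Ikzf2, Gata3 ran from 109 to 127 CPM in Treg and 30.3 to 38.5 CPM in Th17 (−1.82 ± 0.08), and Ikzf4, which encodes Eos, a corepressor of Foxp3, from 303 to 353 and 141 to 182 CPM (−1.02 ± 0.08). Foxo1, which keeps T cells quiescent and supports Foxp3, was higher in Th17 (1.04 ± 0.07). Satb1, a chromatin organiser that Foxp3 represses, was also higher in Th17, at 362, 380.3, 390.5, 372, 397 and 362 CPM, and in Treg it stood at 288, 275, 160.3, 165, 144 and 150.3 CPM (1.00 ± 0.14). For Satb1 the DMSO and WMS-200 Treg libraries lay above the other 4 and below every Th17 library. Id3 (−0.24 ± 0.12, adjusted p = 0.0779) and Foxp1 (0.03 ± 0.07, adjusted p = 0.708) did not pass, but did with the length trend removed (−0.75 and 0.37). The call of Id3 also changed with other settings, 6 in all.

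The effector and surface genes of Treg cells were more uniform, with 14 of 20 higher in Treg, 3 higher in Th17 and 3 not passing (median −1.08). Itgb8, the β subunit of αvβ8, ran from 21.8 to 45.3 CPM in Treg and 1.69 to 3.26 CPM in Th17 (−3.98 ± 0.15). Itgae, which encodes CD103 and binds E-cadherin, stood at 711, 742, 409, 450.3, 419 and 424 CPM in Treg and ran from 42.5 to 79.7 CPM in Th17 (−3.07 ± 0.12). Entpd1 (CD39) ran from 13.1 to 23.7 against 1.5 to 3.88 CPM (−2.88 ± 0.19). The groups were apart for all of these, and DMSO and WMS-200 were again the 2 highest Treg libraries for Itgae.

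Tigit, an inhibitory receptor, ran from 25.5 to 34.1 CPM in Treg and 4.22 to 6.08 CPM in Th17 (−2.56 ± 0.12), and Ebi3, a subunit of IL-35 and IL-27, from 15.9 to 25 and 4.12 to 5.27 CPM (−2.29 ± 0.14). Lrrc32 encodes GARP, which holds latent TGF-beta at the cell surface. It stood at 22.5, 32, 65.2, 67.1, 61.9 and 62.1 CPM in Treg and 13.7, 11.5, 10.9, 14.1, 12.6 and 14.4 CPM in Th17 (−1.92 ± 0.21), with DMSO and WMS-200 the lowest Treg libraries. Ctla4 ran from 263 to 398 against 70.8 to 109.6 CPM (−1.85 ± 0.11). The 3 genes higher in Th17 were Il2ra, the high-affinity chain of the IL-2 receptor (1590.5 to 1811 against 615 to 1481 CPM, 0.61 ± 0.15), Capg (1.06 ± 0.09) and Gpr83 (1.02 ± 0.28). Tgfb1 did not differ by the test (−0.00098 ± 0.07, 95% interval −0.15 to 0.15, adjusted p = 0.991).

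Genes of other helper fates differed as well. Of 14 measured Th1 genes 11 were higher in Treg and 3 in Th17 (median −0.89). Tbx21, which encodes T-bet, the Th1 master factor, ran from 26.4 to 34.7 CPM in Treg and 8.81 to 11.7 CPM in Th17 (−1.59 ± 0.10), Stat4 from 43.2 to 67.6 and 9.12 to 16.8 CPM (−2.14 ± 0.14), and the IL-12 receptor chain Il12rb2 from 42.1 to 57.8 and 5.64 to 11.7 CPM (−2.63 ± 0.15). The IL-18 receptor chains Il18r1 (−2.94 ± 0.09) and Il18rap (−2.31 ± 0.07) were higher in Treg by similar amounts. Ifng, the cytokine that these genes serve in Th1 cells, was low and higher in Th17, with 573 counts against 32 (4.23 ± 0.31). In the Th2 list 4 of 7 genes were higher in Th17 and 1 in Treg (median 0.68). Il13 (2.25 ± 0.31) was among the former and Gfi1, a repressor that favours Th2 growth, was the one higher in Treg (−2.70 ± 0.11). Gata3, counted above with the Treg factors and not in this list, was also higher in Treg. Of 8 follicular helper genes 5 were higher in Th17, Pou2af1 (2.90 ± 0.09) and the B cell follicle receptor Cxcr5 (2.34 ± 0.09) leading, while Bcl6, the master factor of that fate, was higher in Treg, at 52.2 to 81.7 against 16.6 to 21.0 CPM (−1.79 ± 0.11).

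**Figure D2:**
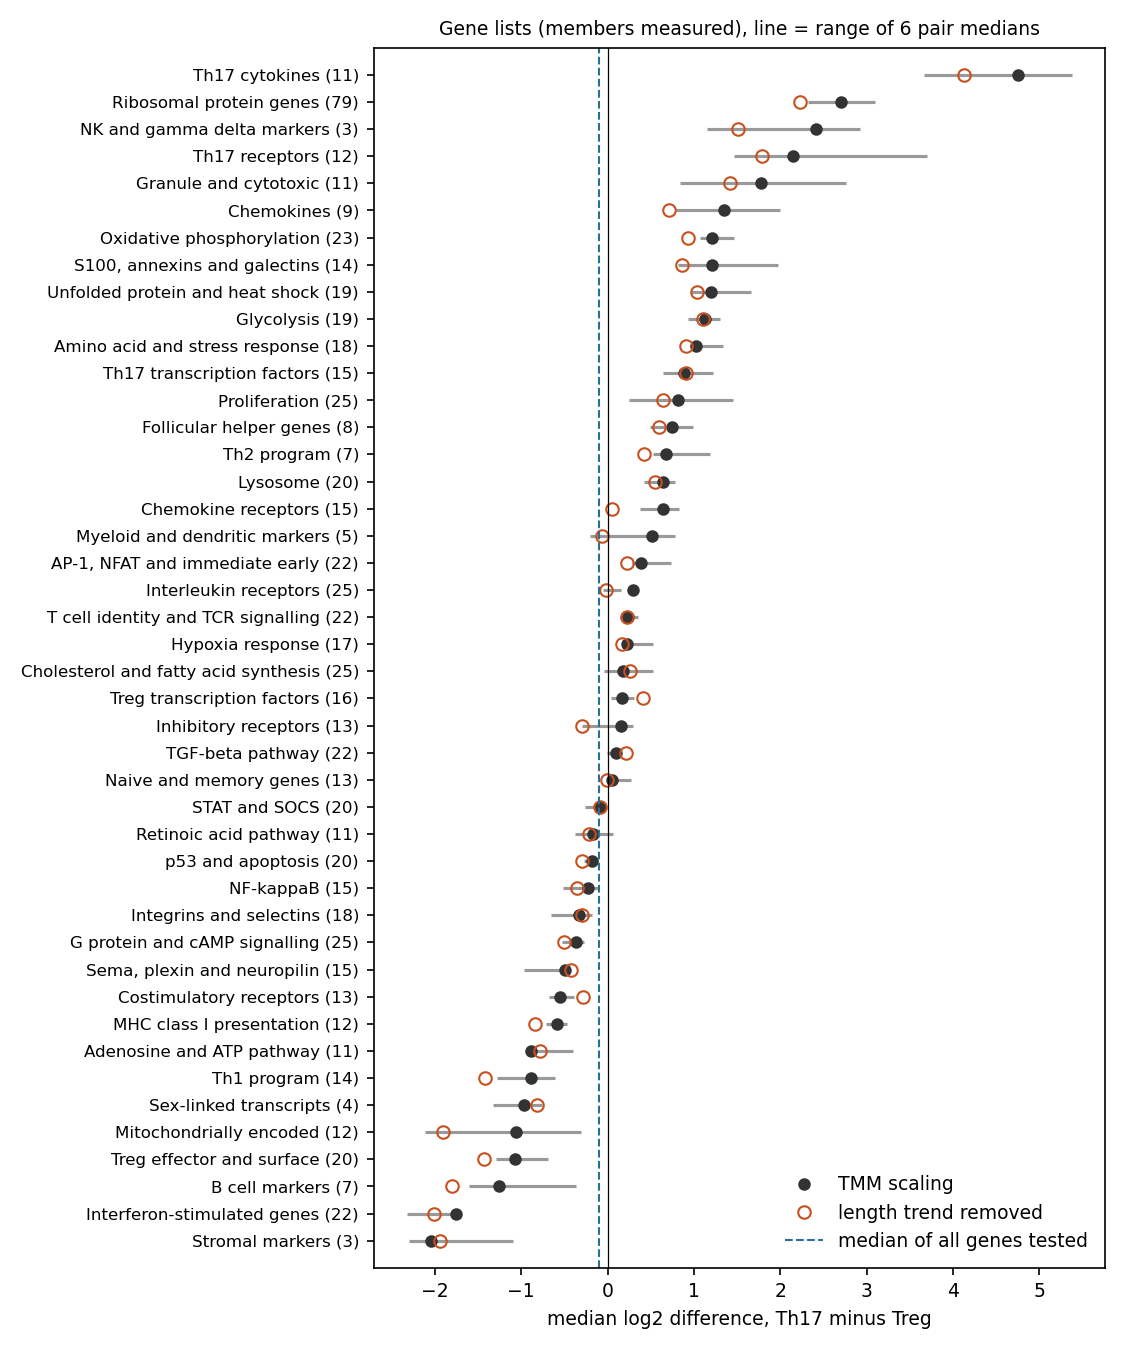
Median log2 difference (Th17 minus Treg) of the measured members of each gene list, as filled points with TMM scaling and open points with the length trend removed; lines span the lowest and highest of the 6 compound pairs' medians and the dashed line marks the median of all genes tested. A pair's median can rest on another member than the median of the estimates, so a filled point can lie outside its line. Ribosomal protein genes and Th17 cytokines lie farthest to the right. Interferon-stimulated genes and Treg effector genes lie to the left, together with the stromal markers, the B cell markers and the mitochondrially encoded genes.

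The TGF-beta pathway is shared by both fates. Of its 22 measured genes 11 were higher in Th17 and 7 in Treg (median 0.10, and −0.05 with upper quartile scaling). Besides Itgb8, Itgae and Lrrc32, those higher in Treg included the latent TGF-beta binding proteins Ltbp3, at 8.17 to 14.6 against 0.285 to 1.08 CPM (−4.25 ± 0.26), and Ltbp4 (−1.50 ± 0.19). The transducer Smad3 was higher in Th17, at 95.6 to 107 against 30.0 to 42.8 CPM (1.54 ± 0.10), as were Smad2 (1.08 ± 0.07) and the receptor Tgfbr1 (0.57 ± 0.10).

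Of 25 interleukin receptor genes 12 were higher in Th17 and 10 in Treg (median 0.30, −0.02 with the length trend removed and −0.14 with a count minimum of 50). Il4ra, for IL-4 and IL-13, was higher in Th17 (1.65 ± 0.08), while Il10ra (−2.17 ± 0.16) and Il7r (−2.02 ± 0.08), the receptor for the survival cytokine IL-7, were higher in Treg. In the STAT and SOCS list 5 of 20 were higher in Th17 and 10 in Treg (median −0.09, and 8 and 8 with the length trend removed). Socs3, the brake on IL-6 signalling, ran from 89.1 to 105 CPM in Th17 and 24.6 to 45 CPM in Treg (1.41 ± 0.11), and Jak3 from 229.6 to 464 and 543 to 845 CPM (−1.10 ± 0.14). Socs2 stood at 94.2, 109, 246, 248, 272 and 249 CPM in the Treg libraries and ran from 101 to 118 CPM in Th17. Its difference was −0.83 ± 0.26 (adjusted p = 0.0181), and −0.61 (adjusted p = 0.0731) with the length trend removed. The call was lost in 4 of the alternatives, that one among them. Within WT number 2 the log2 ratio was −1.11 and within number 3 it was 0.02. Each ratio has 1 Th17 library and unlike treatments on its 2 sides, so number and treatment cannot be told apart.

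Retinoic acid supports Foxp3 and gut homing. Of 11 measured genes of that pathway 4 were higher in Th17 and 5 in Treg (median −0.16), led by Dhrs3, a retinaldehyde reductase (−3.29 ± 0.28), and Itga4, a subunit of the gut-homing integrin α4β7, at 119.5 to 198 against 17.0 to 23.4 CPM (−2.90 ± 0.13), both higher in Treg. Crabp2 (2.47 ± 0.17) and the receptor Rara (1.16 ± 0.07) were higher in Th17. The aryl hydrocarbon receptor, a sensor of tryptophan products in culture medium and gut, was higher in Th17 with its textbook target: Ahr ran from 179 to 196 against 68.5 to 79.8 CPM (1.26 ± 0.07) and Cyp1a1 from 41.7 to 65.2 against 1.67 to 2.87 CPM (4.50 ± 0.13). Tiparp, another known target, was higher in Th17 too (2.24 ± 0.14).

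Genes of T cell activation fell in both directions. In the list of AP-1, NFAT and immediate early genes 14 of 22 were higher in Th17 and 3 in Treg (median 0.39, and 12 and 3 with the length trend removed). Batf3 (3.76 ± 0.29), Atf3 (2.53 ± 0.16), Junb (1.24 ± 0.09) and Nfatc2 (1.26 ± 0.08) were higher in Th17, and Nr4a2, a nuclear receptor switched on by T cell receptor signals, was higher in Treg (−1.54 ± 0.13). Fos did not pass (−0.03 ± 0.16, 95% interval −0.39 to 0.32). In the NF-κB list 9 of 15 were higher in Treg and 3 in Th17 (median −0.22). Rel, the subunit c-Rel that Foxp3 expression depends on, ran from 371 to 501 CPM in Treg and 87.7 to 118 CPM in Th17 (−2.0 ± 0.07), and the feedback inhibitors Nfkbie (−1.89 ± 0.07) and Tnfaip3 (−1.19 ± 0.08) were higher in Treg as well. Rela, the p65 subunit, was higher in Th17 (0.78 ± 0.07).

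Costimulatory receptors were mixed, with 5 of 13 higher in Th17 and 7 in Treg (median −0.55). Of the TNF receptor family Cd27 (−2.19 ± 0.09), Tnfrsf9 (4-1BB, −1.67 ± 0.09) and Tnfrsf18 (GITR, −1.21 ± 0.10) were higher in Treg and Tnfrsf8 (CD30, 2.49 ± 0.17) in Th17. Of 13 inhibitory receptors and ligands 4 were higher in Th17 and 5 in Treg (median 0.15, and −0.29 with the length trend removed). Pdcd1 (PD-1) ran from 284 to 369 CPM in Th17 and 99.6 to 169 CPM in Treg (1.27 ± 0.08), and Lag3 from 112 to 152 and 45.1 to 67.4 CPM (1.26 ± 0.11). The ligand of PD-1, Cd274, was higher in Treg (−1.45 ± 0.07).

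In the chemokine receptor list 10 of 15 were higher in Th17 and 3 in Treg (median 0.64). With the length trend removed 7 were higher in Th17 and 5 in Treg (median 0.05). In the chemokine list 7 of 9 were higher in Th17 and 2 in Treg (median 1.35, and 5 and 2 with a median of 0.71 with the length trend removed). Cxcr6 (2.34 ± 0.12) was higher in Th17 and Cx3cr1 (−2.43 ± 0.20) in Treg. The inflammatory chemokines Ccl3 (2.12 ± 0.24) and Ccl4 (1.82 ± 0.16) were higher in Th17. Adhesion molecules leaned to Treg, with 10 of 18 integrins and selectins higher there and 4 in Th17 (median −0.33). Itgb3 ran from 43.5 to 70.1 CPM in Treg and 3.99 to 5.87 CPM in Th17 (−3.42 ± 0.14). Of 13 genes of naive and memory cells 6 were higher in Th17 and 4 in Treg, with a median of 0.06 that fell below 0 in 3 alternatives.

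In the adenosine and ATP pathway 7 of 11 genes were higher in Treg and 4 in Th17 (median −0.88). Nt5e (CD73), which makes adenosine from the AMP that CD39 yields, ran from 530.2 to 664 against 348 to 401 CPM (−0.71 ± 0.08) and P2rx7, an ATP-gated channel, from 46.7 to 79.0 against 12.4 to 17.0 CPM (−2.18 ± 0.11), both higher in Treg. Adora2a, the main adenosine receptor of T cells, was higher in Th17 (0.59 ± 0.10). Opioid receptors signal through inhibitory G proteins, and of 25 measured genes of G protein and cAMP signalling 17 were higher in Treg and 5 in Th17 (median −0.36, and 15 and 4 with the length trend removed). Pde4a, a phosphodiesterase that degrades cAMP, ran from 80.7 to 116 CPM in Treg and 2.73 to 7.01 CPM in Th17 (−4.45 ± 0.13), and Rgs9, which shortens G protein signals, from 56.2 to 69.4 and 2.69 to 5.69 CPM (−4.07 ± 0.13). The inhibitory α subunits Gnai3 (1.45 ± 0.09) and Gnai2 (0.97 ± 0.09) were higher in Th17. Oprk1, the gene of KOR, was at 0 counts in each of the 12 libraries, which allows up to 0.202 CPM in the Th17 DMSO library (3 counts, counting error only).

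Interferon-stimulated genes were higher in Treg in 20 of 22 measured cases, 1 was higher in Th17 and 1 did not pass (median −1.76), while with the length trend removed all 22 were higher in Treg. Interferon signals end in transcription factor complexes that bind 2 kinds of DNA element, the ISRE and the GAS, next to these genes. Iigp1, a GTPase that attacks the vacuoles of intracellular parasites, stood at 238, 226, 159, 158, 136 and 124 CPM in Treg and 0.473, 0.684, 0.593, 1.37, 1.17 and 0.715 CPM in Th17 (−7.62 ± 0.21, adjusted p = 7.44e-11). Every Treg library was higher by a wide margin, with DMSO and WMS-200 the highest. Gbp7 ran from 50.8 to 125 CPM in Treg and 2.64 to 3.33 CPM in Th17 (−4.73 ± 0.17), Gbp3 from 46.0 to 65.7 and 5.39 to 7.63 CPM (−3.15 ± 0.12), and Gbp5 from 140.3 to 201 and 25.1 to 38.6 CPM (−2.33 ± 0.07). These 3 encode guanylate-binding proteins, which coat pathogen membranes and lie close together on chromosome 3.

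Irf1, the factor that relays interferon-γ signals, stood at 369.9, 363, 232, 247, 259.6 and 293 CPM in Treg and 36.2, 35, 34.9, 37.0, 34.7 and 34.4 CPM in Th17 (−3.03 ± 0.10). The Th17 values lay within a narrow band below all Treg values. Irf7 (−4.23 ± 0.20) and Mx1 (−3.70 ± 0.29) were low in both cell types and higher in Treg. Ifit3 did not pass (−0.59 ± 0.29, adjusted p = 0.0799), but did with the length trend removed (−1.11). It passed in 2 of the alternatives, that one among them. The 1 member higher in Th17 was Bst2 (0.45 ± 0.13), which was higher in Treg with the length trend removed (−0.49).

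The promoters of 4 of these genes, chosen among those that hold a match, are shown because the genes differed in the same direction. They are the 250 bases before the start of transcription, from RefSeq on GRCm38.p6: Gbp3 at chr3:142559794-142560043, Gbp5 at chr3:142496684-142496933, Gbp7 at chr3:142530086-142530335 and Irf1 at chr11:53769764-53770013, all on the + strand. Gbp3 and Irf1 have 2 promoter entries each, and only the first entry of a gene was used. Capitals mark matches on either strand to the core of the ISRE, GAAA and GAAA with any 2 bases between, or to the GAS, TTCNNNGAA, and matches that overlap are joined.
Gbp3: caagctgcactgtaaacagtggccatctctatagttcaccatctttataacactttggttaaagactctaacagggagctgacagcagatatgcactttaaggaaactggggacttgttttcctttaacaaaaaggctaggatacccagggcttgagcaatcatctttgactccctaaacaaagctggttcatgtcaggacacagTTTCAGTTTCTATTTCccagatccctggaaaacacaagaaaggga
Gbp5: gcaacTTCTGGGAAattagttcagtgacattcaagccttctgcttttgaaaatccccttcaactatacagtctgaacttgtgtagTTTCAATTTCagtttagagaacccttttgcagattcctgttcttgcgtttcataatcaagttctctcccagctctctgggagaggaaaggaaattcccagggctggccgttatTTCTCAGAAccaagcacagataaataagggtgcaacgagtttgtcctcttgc
Gbp7: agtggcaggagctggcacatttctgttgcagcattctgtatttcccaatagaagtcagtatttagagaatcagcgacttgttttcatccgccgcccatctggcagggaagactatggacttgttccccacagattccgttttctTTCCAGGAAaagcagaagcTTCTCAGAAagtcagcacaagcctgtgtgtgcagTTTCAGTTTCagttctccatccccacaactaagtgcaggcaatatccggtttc
Irf1: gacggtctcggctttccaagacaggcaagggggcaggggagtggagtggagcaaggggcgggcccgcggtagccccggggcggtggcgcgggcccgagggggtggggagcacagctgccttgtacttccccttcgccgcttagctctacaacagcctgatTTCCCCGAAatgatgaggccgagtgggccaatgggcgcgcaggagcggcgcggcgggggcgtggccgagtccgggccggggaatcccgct
Gbp3 holds 2 overlapping matches to the ISRE core, Gbp5 and Gbp7 each hold 1 ISRE core and 2 GAS matches, and Irf1 holds 1 GAS match, 90 bases before its start. Of 16 interferon-list genes with a promoter in the table, 10 (62.5%) had an ISRE core and 6 (37.5%) a GAS match, beside 2.547% and 5.975% of the promoters of the 10209 tested genes in the table. The list is one of known interferon-stimulated genes, so its shares are no result about the cell types. Among genes at least 2-fold higher in Treg, 3.867% of the promoters had an ISRE core and 6.243% a GAS match. For genes at least 2-fold higher in Th17 the shares were 2.653% and 5.922%. These shares were not tested against each other. A match describes the letters of this window and not a bound site.

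**Figure D3:**
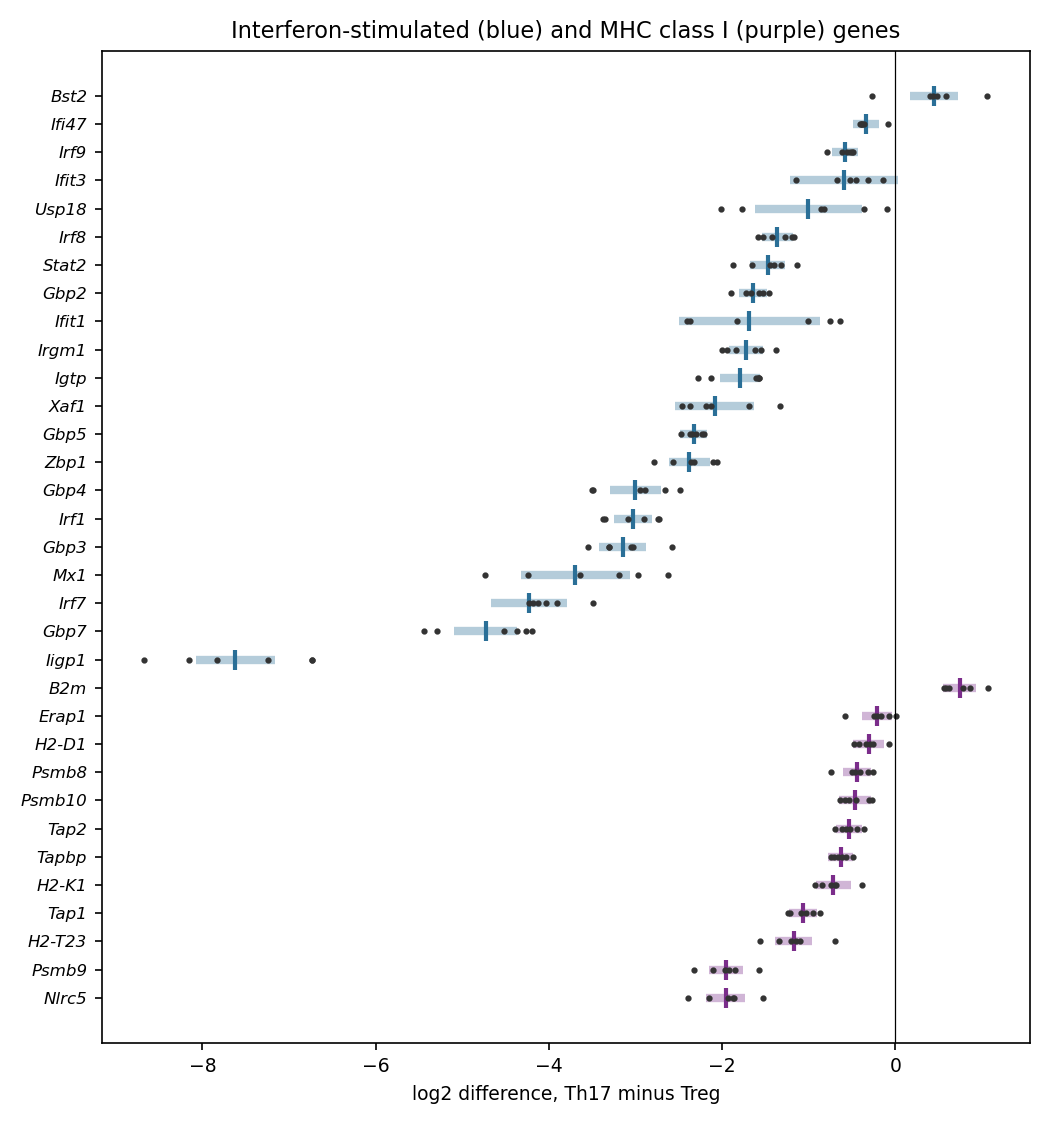
Log2 difference (Th17 minus Treg) of the measured interferon-stimulated and MHC class I genes (1 member is not shown) in each of the 6 compound pairs (points) with the model's estimate and its 95% interval (bars). Nearly all members lie left of 0, and B2m and Bst2 are the members to the right.

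Genes of antigen presentation by MHC class I, which interferon also induces, were higher in Treg in 11 of 12 cases (median −0.59). Nlrc5, their transactivator, ran from 660.2 to 962 CPM in Treg and 154 to 270.1 CPM in Th17 (−1.96 ± 0.10), and the immunoproteasome subunit Psmb9 from 178 to 282 and 46.3 to 59.9 CPM (−1.96 ± 0.09). The heavy chain H2-K1 differed less (−0.72 ± 0.09). B2m, the light chain, was higher in Th17 (0.74 ± 0.09), and with the length trend removed it was higher in Treg by a smaller amount (−0.22, adjusted p = 0.0141).

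Genes of the translation machinery were higher in Th17, and those of energy metabolism were mostly so, apart from the genes encoded in mitochondrial DNA. Of 79 measured ribosomal protein genes 77 were higher in Th17 and 1 in Treg (median 2.70, and 2.23 with the length trend removed), and reads of these genes can be shared with pseudogene copies. Rplp0 ran from 4519 to 6988 CPM in Th17 and 409 to 826 CPM in Treg (3.35 ± 0.14), and Rps27 from 386 to 673 and 20.8 to 72.2 CPM (3.50 ± 0.22). The elongation factors Eef1a1 (3.23 ± 0.16) and Eef2 (2.26 ± 0.12) and the abundant growth protein Tpt1 (3.16 ± 0.14) were among the genes with the largest differences in mean CPM.

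Of 23 nuclear genes of oxidative phosphorylation 22 were higher in Th17 and none in Treg (median 1.21), with Ndufa1 (2.61 ± 0.15), Uqcrq (2.45 ± 0.09) and Cox4i1 (2.06 ± 0.12) as examples. The genes of the same complexes encoded in mitochondrial DNA went the other way, with 10 of 12 higher in Treg and none in Th17 (median −1.06). Of these mt-Co1, a subunit of cytochrome oxidase, stood at 1271, 1293, 1125, 2076, 861 and 767 CPM in Th17 and 5886, 5787, 5189, 5658, 7870.5 and 7167 CPM in Treg (−2.41 ± 0.22). No library of either group reached into the other, although the Th17 libraries varied among themselves. In Treg the mean of mt-Co1 was 6260 CPM, beside 9802 CPM for the summed list, so the share of counts rests in large part on this gene. Other members were lower, by unlike amounts. In the Treg libraries of WT number 2 the means of mt-Nd1 and mt-Nd2 were 928 and 473 CPM. Those of mt-Co2, mt-Co3 and mt-Atp6, among the lowest, were 25.7, 11.7 and 15.6 CPM. The reason for this unevenness was not tested. The subunits of complex I mt-Nd1 (−0.86 ± 0.34, adjusted p = 0.0521) and mt-Nd2 (−0.50 ± 0.31, adjusted p = 0.181) did not pass. With the length trend removed both passed (−1.77, adjusted p = 0.00416, and −1.36, adjusted p = 0.00879), and all 12 genes were higher in Treg (median −1.90). The call of mt-Nd1 also changed with other settings, 9 in all, and that of mt-Nd2 changed in 2. Poly(A) libraries capture mitochondrial transcripts through their short tails.

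In glycolysis 12 of 19 entries were higher in Th17 and 5 in Treg (median 1.13), of which 10 and 4 differed by at least 2-fold. The 5 higher in Treg are not named here. Hk2, the inducible hexokinase, ran from 54.6 to 69.3 CPM in Th17 and 18.0 to 28.6 CPM in Treg (1.42 ± 0.12), Pgk1 from 528 to 729 and 82.5 to 176 CPM (2.26 ± 0.13), and Ldha, which makes lactate, from 954 to 1278 and 182 to 308 CPM (2.16 ± 0.10). The glucose transporter Slc2a1 was higher in Th17 (1.24 ± 0.12), while Slc2a3 did not pass (−0.15 ± 0.10, 95% interval −0.38 to 0.07). Of the hypoxia list 10 of 17 were higher in Th17 and 3 in Treg (median 0.23, and 8 and 5 with the length trend removed). Egln3, an oxygen sensor that HIF-1 induces, led it (3.42 ± 0.11), and Hif1a, the regulator shared with Th17 cells, differed little (0.23 ± 0.08, adjusted p = 0.0175), a call lost in 4 of the alternatives. Of 25 genes of cholesterol and fatty acid synthesis 11 were higher in Th17 and 6 in Treg (median 0.17, and 14 and 7 with the length trend removed). The desaturase Scd1 (−3.10 ± 0.21) and the cholesterol exporter Abca1 (−2.61 ± 0.10) were higher in Treg.

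Stress pathways were mostly higher in Th17. Of 18 genes of the amino acid and integrated stress response 16 were higher in Th17 and 2 in Treg (median 1.02), among them the leucine transporter Slc7a5, at 419 to 487 against 74.2 to 111 CPM (2.26 ± 0.09), Asns, which makes asparagine (1.99 ± 0.15), and Trib3 (2.62 ± 0.14). Of 19 chaperone genes 16 were higher in Th17 (median 1.2), with Hspa8 (1.72 ± 0.12) and Hspe1 (1.94 ± 0.12) as examples. The 2 higher in Treg were the heat-inducible pair Hspa1a, at 9.39, 14.3, 28.3, 25.9, 37.4 and 39.8 CPM in Treg and 1.88 to 3.43 CPM in Th17 (−3.14 ± 0.26), and Hspa1b (−2.41 ± 0.24), near-identical genes whose reads the counting could split. For Hspa1a the DMSO and WMS-200 Treg libraries were the lowest of the Treg libraries.

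Of 25 proliferation genes 19 were higher in Th17 and 3 in Treg (median 0.82, and 16 and 4 with the length trend removed). The largest difference in the list was that of the replication gene Mcm3, at 486 to 584 against 81.6 to 173 CPM (2.08 ± 0.11), and Mcm2 (1.38 ± 0.11) and Pcna (1.12 ± 0.11) were also higher in Th17. The 3 higher in Treg were Mki67, at 837, 853, 1223, 1170.3, 1392 and 1451 CPM in Treg and 504 to 749 CPM in Th17 (−0.89 ± 0.15), Top2a (−0.44 ± 0.14, adjusted p = 0.0133) and Aurkb (−0.35 ± 0.13, adjusted p = 0.0267). The call of Top2a was lost in 4 of the alternatives, the removal of the length trend among them (−0.24). That of Aurkb was lost in 5, among them those without the WMS-64, WMS-75, WMS-76 or WMS-83 pair. Within WT number 2 the log2 ratios of Mki67, Top2a and Aurkb were −0.80, −0.47 and −0.29, and within number 3 they were −0.43, 0.04 and 0.22, so that Top2a and Aurkb turned direction. In the p53 and apoptosis list 10 of 20 were higher in Treg and 7 in Th17 (median −0.18). The proapoptotic Bcl2l11 (BIM), which removes T cells when IL-2 runs out, was higher in Treg (−1.89 ± 0.13) and the cell cycle inhibitor Cdkn1a in Th17 (1.29 ± 0.10). Lysosomal genes leaned to Th17, with 15 of 20 higher there and 1 in Treg (median 0.64, and 13 and 4 with the length trend removed), Ctsb (1.53 ± 0.09) and Npc2 (1.65 ± 0.08) among them.

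The S100, annexin and galectin genes, which mark activated and migrating T cells, were higher in Th17 in 13 of 14 cases and in Treg in 1 (median 1.21, and 10 and 2 with the length trend removed). S100a6 ran from 39.4 to 70.8 CPM in Th17 and 1.66 to 3.96 CPM in Treg (4.07 ± 0.17), and Lgals3 from 251 to 354 and 22.9 to 41.8 CPM (3.25 ± 0.12). Of 15 genes of semaphorins and their receptors 9 were higher in Treg and 5 in Th17 (median −0.49). Sema4c ran from 36.9 to 64.6 CPM in Treg and 2.73 to 4.50 CPM in Th17 (−3.86 ± 0.16). Nrp1, a marker of thymic Treg cells, differed little (−0.33 ± 0.09) and was no longer called with the length trend removed (−0.10, adjusted p = 0.306). Its call was lost in 2 of the alternatives, that one among them.

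Granule and cytotoxic genes were higher in Th17 in 8 of 11 cases and in Treg in 3 (median 1.78). Gzmb (granzyme B) stood at 287, 175, 151, 130.1, 192 and 118 CPM in Th17 and 2.65, 6.07, 5.50, 4.89, 5.14 and 3.95 CPM in Treg (5.16 ± 0.24), and Prf1 (perforin) ran from 8.91 to 12.2 against 0.149 to 1.52 CPM (4.30 ± 0.32). Gzma had 985 counts in Th17 and 1 in Treg. Eomes, a factor of cytotoxic and memory cells, was higher in Treg (−2.86 ± 0.22). Markers of CD8 T cells moved with this list. Cd8a stood at 117, 91.5, 96.3, 83.3, 107 and 35.6 CPM in Th17 and 8.13, 8.02, 6.78, 8.97, 6.91 and 8.21 CPM in Treg (3.42 ± 0.22), and Cd8b1 ran from 22.9 to 51.8 against 4.70 to 9.16 CPM (2.63 ± 0.24). Th17 WMS-83 held the lowest values of Cd8a, Cd8b1 and Gzmb among the Th17 libraries, and the part of CD8 T cells in the granule genes was not tested. Cd4 was higher in Treg, at 629 to 759 against 453 to 535 CPM (−0.49 ± 0.08).

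Markers of other cells were low but not equal. The summed level of the 10 B cell markers was 96.0 to 127.2 CPM in Th17 and 238.6 to 316.7 CPM in Treg. Of the 7 measured ones 4 were higher in Treg and none in Th17, mostly Cd74 and Ighm. The 12 myeloid and dendritic markers summed to 60.0 to 92.3 CPM in Th17 and 28.1 to 37.9 CPM in Treg, carried by Cst3, with Lyz2 at 37 and 28 counts. Of 10 stromal and endothelial markers 3 were measured, 2 of them higher in Treg (median −2.04), and the other 7 had at most 52 counts in a cell type. Of the 3 measured γδ T cell genes, constant segments of that receptor, all 3 were higher in Th17, led by Trdc at 10.2 to 12.8 against 1.18 to 2.42 CPM (2.71 ± 0.20). The sex-linked list, whose 4 measured members are Y-linked, summed to 208.9 to 258.2 CPM in Th17 and 389.1 to 531.1 CPM in Treg, and Xist had 24 and 13 counts. The part of these cells in any difference above was not tested.

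Outside the lists, the following were among the largest differences of well-measured protein-coding genes with no overlap. Higher in Th17 was Crispld2, which encodes a secreted protein, at 103 to 149 against 0.147 to 0.882 CPM (7.73 ± 0.21). Il2, the growth factor that Foxp3 represses, stood at 93.1, 150.1, 203, 141, 193 and 136 CPM in Th17 and 1.15, 2.15, 2.57, 2.24, 3.19 and 2.58 CPM in Treg (6.04 ± 0.10, adjusted p = 5.21e-13). The Th17 DMSO library was the lowest of its group and the Treg DMSO library the lowest of its own. Inhba, a subunit of activin A, a TGF-beta family ligand, ran from 125 to 155 against 0.196 to 4.89 CPM (6.0 ± 0.42). Lhx6 (5.63 ± 0.37), Olfm2 (5.04 ± 0.10), Tspan6 (4.37 ± 0.18), Lmna, which encodes lamin A (4.23 ± 0.11), and Pdpn, the glycoprotein podoplanin (3.85 ± 0.14), were also higher in Th17.

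Higher in Treg was Matk, a kinase that restrains Src family kinases, at 169, 111, 38.7, 54.1, 54.3 and 58.7 CPM in Treg and 1.03 to 1.67 CPM in Th17 (−5.74 ± 0.23), with DMSO and WMS-200 well above the other Treg libraries. Pla2g4f, a phospholipase A2, ran from 238 to 466 against 5.20 to 11.7 CPM (−5.52 ± 0.19) and Tnc, the matrix protein tenascin C, from 35.6 to 94.6 against 0.640 to 4.61 CPM (−5.24 ± 0.28). Car2, a carbonic anhydrase, was also higher in Treg (−5.03 ± 0.14). Mndal (−5.08 ± 0.15), Ifi203 (−4.17 ± 0.11) and Gbp6 (−4.25 ± 0.12), families that interferon is known to induce, and Xdh, xanthine dehydrogenase (−4.21 ± 0.18), were others. Mndal and Ifi203 belong to a cluster of similar genes, so reads could be split between copies.

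**Figure D4:**
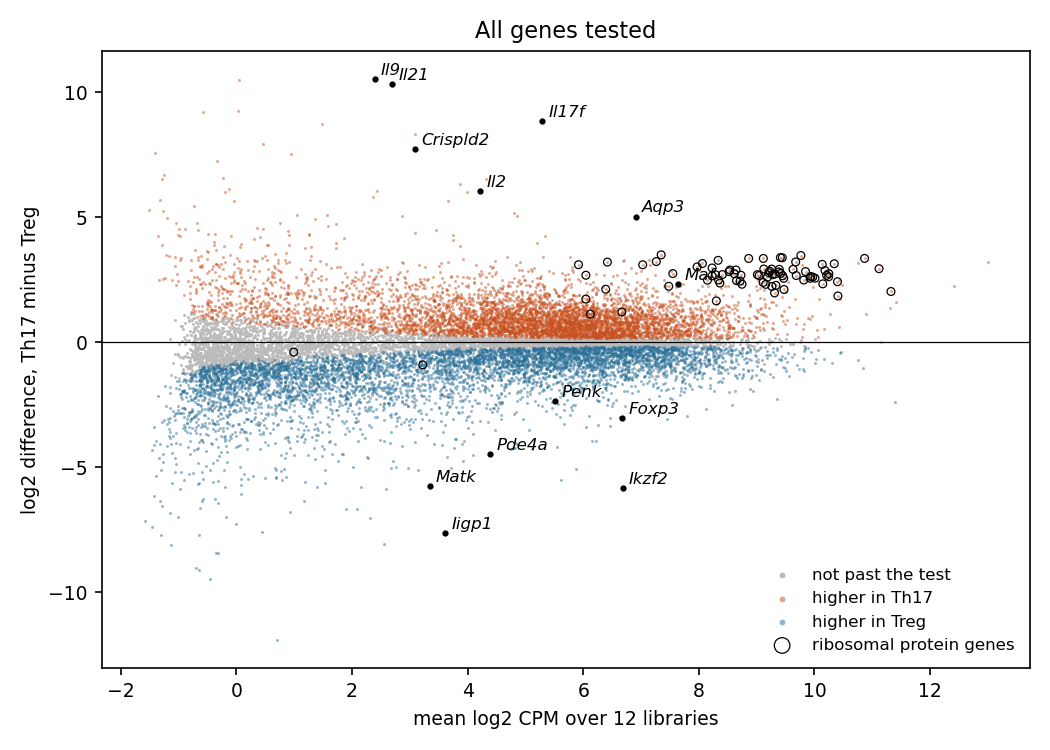
Log2 difference (Th17 minus Treg) of the 14768 tested genes against their mean log2 CPM over the 12 libraries, with genes past the test in colour and named members labelled. Ribosomal protein genes form a cloud near 2.70 at high expression and Ikzf2, Matk and Iigp1 are among the labelled genes at the bottom.

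A difference between Treg libraries accompanied the WT number. Among the 6 Treg libraries 2241 of 13457 genes (16.7%) passed between the 2 libraries of number 3 (DMSO and WMS-200) and the 4 of number 2 (edgeR's quasi-likelihood test, WT number the only term), a comparison added after the split was seen. The number cannot be told apart from the treatments these libraries carry. In number 3 Foxp3 (−0.78 ± 0.12, number 3 minus 2), Maf (−0.69 ± 0.11) and Lrrc32 (−1.19 ± 0.14) were lower, and Ikzf2 (1.03 ± 0.11), Itgae (0.81 ± 0.10) and Satb1 (0.90 ± 0.10) were higher. The stem cell factor receptor Kit stood at 112, 168, 30.5, 32.4, 29.0 and 32 CPM and the complement gene C3 at 1.56, 3.77, 20, 19.6, 21.5 and 22.0 CPM, with the first 2 libraries high for Kit and low for C3 (2.22 ± 0.13 and −2.90 ± 0.25).

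The last comparison asked whether the difference between the cell types changed with the agonists, by a test of the interaction of cell type with agonist or DMSO. It takes the 5 agonists as replicates of one another and has 1 DMSO library per cell type, so its p-values rest on 1 unreplicated library per arm and on the spread of the other libraries. Th17 DMSO is also the sole Th17 library of WT number 2, so in Th17 vehicle and number cannot be told apart. Of 14768 genes 1 (0.00677%) passed, and 1591 had an unadjusted p under 0.05. That gene was Penk (chromosome 4, 4133531 to 4138819, - strand), which encodes proenkephalin, the precursor of opioid peptides. Penk stood at 38.7, 15.0, 19.7, 17.0, 19.6 and 18.1 CPM in Th17 and 73.2, 116, 103, 102, 121 and 107 CPM in Treg. In Th17 the DMSO library was the highest of the 6 and in Treg it was the lowest, and the Th17 minus Treg difference was 1.70 ± 0.22 lower on the log2 scale with the agonists (adjusted p = 0.0079). Without the WMS-83 pair Penk no longer passed (adjusted p = 0.0629), and with the WT number as a block its difference was −1.85 ± 0.36 (adjusted p = 0.256) and Kit was the gene that passed. Without the WMS-200 pair 341 genes passed, Penk included, and in that fit DMSO is the sole Treg library of WT number 3, so that treatment and number cannot be told apart. The next smallest p belonged to genes with adjusted p of 0.137 or more, Gzmb among them (adjusted p = 0.248), with the highest value of its group in Th17 DMSO and the lowest of its group in Treg DMSO.

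**Figure D5:**
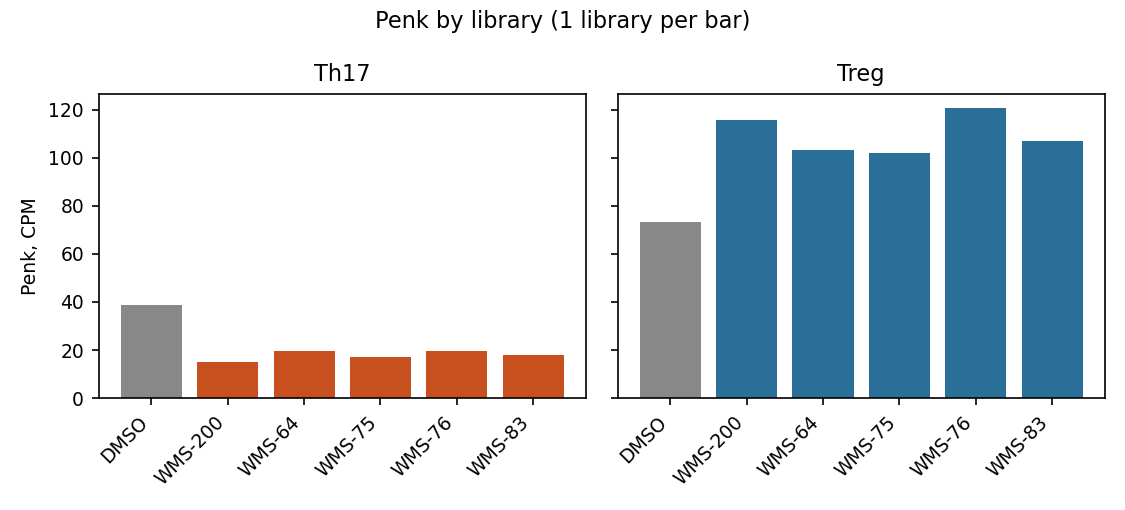
CPM of Penk in the 12 libraries by compound, on a linear axis from 0; each bar is 1 library, Th17 in the left panel and Treg in the right. DMSO is the highest of the Th17 libraries at 38.7 CPM and the lowest of the Treg libraries at 73.2 CPM.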

How the data were processed

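Bulk poly(A) RNA sequencing counts of 12 libraries, 6 Th17 and 6 Treg, were taken from a deposited table of 56748 genes. Per the submitters' processing notes the authors used fastp, HISAT2 and featureCounts, and the deposited values are raw counts per gene. Tool versions, genome build, annotation and strand setting: not given in the sources used here. Reads of overlapping antisense genes may not be separated. All value columns matched a labelled sample (0 left over). Genes were filtered with filterByExpr by cell type (minimum count 10) and scaled by TMM. Th17 was compared with Treg in edgeR 4.0.16 (R 4.3.3) by the robust quasi-likelihood test with compound as a block (5 residual degrees of freedom, biological coefficient of variation 0.154), Benjamini-Hochberg over 14768 genes, threshold 0.05. The interaction of cell type with agonist had 8 residual degrees of freedom. Exact permutation tests used Python with the shares of counts per library. Alternatives changed scaling, filter, block, tool (DESeq2 1.42.0, limma 3.58.1 voom), gene length and the pairs included. The scripts were tested on simulated counts.

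The libraries and gene lists were chosen with earlier results of these data known. Genes named are the 4 markers, up to 6 called members of each list by size of difference and up to 3 that were not called, up to 15 protein-coding genes in each direction outside the lists, up to 8 by difference in CPM, and those with the smallest interaction p. The 27 other tested genes named (Adora2a, Ahr, Aurkb, Bst2, C3, Capg, Ccr6, Cd4, Csf2, Gbp5, Gnai2, Gpr83, Hif1a, Hk2, Il10, Il2ra, Kit, Mki67, Nrp1, Nt5e, Slc2a1, Smad2, Socs2, Stat3, Tbx21, Tgfbr1 and Top2a) were chosen after their values were seen. The comparison of Treg libraries by WT number and the fit without the DMSO and WMS-200 pairs were also added after seeing the data. Results for some genes are not reported here.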

Additional observations from a re-analysis of the deposited data

Results flagged for a closer look

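The agonist effect differed between the cell types for Penk, by −1.70 on the log2 scale in Th17 relative to Treg, in the test of the interaction, which has 1 DMSO library per cell type. The call was lost with the WT number as a block (adjusted p = 0.256) and without the WMS-83 pair (adjusted p = 0.0629), and each DMSO library carries another WT number than most agonist libraries of its cell type. In Th17 the DMSO library, at 38.7 CPM, also stood far from the other 5 libraries.

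In 22 of 378 groups of 6 libraries looked at (genes named in the text and the shares of counts), the highest or lowest library stood far from the rest. Chance gives about 1 in 20 such cases. Among the Th17 libraries DMSO was high for Cx3cr1 (6.29 CPM) and Tnfrsf8 (17.4 CPM) and low for Gbp5 (25.1 CPM) and Tiparp (49.9 CPM). WMS-75 was high for Ahr (196 CPM) and Rgs9 (5.69 CPM) and low for Bst2 (59.7 CPM) and Uqcrq (60.4 CPM). WMS-83 was high for Rara (257.5 CPM), Rela (259 CPM) and Stat3 (1229 CPM) and low for Gfi1 (15.5 CPM), and WMS-76 was high for Itgb8 (3.26 CPM). Among the Treg libraries DMSO was high for Ifi203 (248 CPM) and low for Atf3 (2.42 CPM), Ebi3 (15.9 CPM) and Impdh2-ps (13.7 CPM). WMS-200 was high for Lmna (11.8 CPM), Prf1 (1.52 CPM) and Il22 (0.294 CPM), and WMS-75 for Gzma (0.0575 CPM, its single count).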

How the results depend on the processing

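Of the 186 genes named, 176 passed the test and 167 of them kept their call and direction in every alternative that tested them. The number of genes higher in Th17 stayed between 4580 (count minimum of 50) and 5799 (all 24 libraries in the fit) and the number higher in Treg between 4769 (count minimum of 50) and 6782 (upper quartile scaling), beside 5306 and 5807, all within 1.5 times. Leaving out 1 agonist pair gave 5117 to 5303 and 5490 to 5600. Upper quartile scaling moved the median of all genes from −0.10 to −0.25 and the removal of the length trend to −0.16. The compound did not pair the libraries, since the correlation of same-compound deviations ran from −0.203 to 0.356. Without the replicate block 5328 and 5937 genes were called, and with the WT number as the replicate block 4969 and 5021. Directions that turned were those of B2m (−0.22), Bst2 (−0.49) and Ltb (−0.46) with the length trend removed and of C3 (−0.52) without the DMSO and WMS-200 pairs, an alternative chosen after seeing the data. The median of the Treg transcription factors was −0.038 with a count minimum of 50, and that of the naive and memory genes −0.012 with the length trend removed, −0.012 with a count minimum of 50 and −0.10 with upper quartile scaling. The causes were not tested.

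The interaction called 26 genes in DESeq2 and 199 with all 24 libraries in the fit, beside 1, and 0 to 341 without 1 agonist pair (341 without WMS-200, 0 without WMS-83 at 1378 unadjusted p under 0.05). With the replicate block by WT number, the length trend removed or limma-voom it called 1. The differences in the shares of counts kept their sign, from 9.07 to 9.69 percentage points for ribosomal protein genes, from −0.87 to −0.72 for mitochondrially encoded genes and from 7.05 to 7.67 for the 50 most abundant genes without 1 pair, and the exact sign-flip test of the pairs gave p = 0.03125 for each, the smallest that 6 pairs allow. With 1 library per treatment and cell type no effect of a single compound within a cell type could be tested, and its average over both cell types was not tested. Genes with under about 10 counts in a group have differences that depend on the prior count.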
